A study of Mus musculus with 18 samples.

Results

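NKT1 and NKT2 cells of the wild-type (WT) mouse thymus were compared by RNA-seq across all genes. The members of the comparison were the 6 WT libraries that the labels assign to these subsets, 3 of NKT1 and 3 of NKT2, of 18 libraries in the series. The other 12 libraries held WT NKT17 cells and NKT1, NKT2 and NKT17 cells of SKG mice, which carry a hypomorphic allele of Zap70. All mice were on the BALB/c background, and the WT and SKG mice were bred from the offspring of 1 cross of the strains. The age of the mice and the number pooled per library were not given in the sources used here. The cells were thymocytes that were enriched for invariant NKT cells and sorted for binding of CD1d tetramers loaded with α-galactosylceramide. NKT1 cells were then gated as CD49a+ with low ICOS, and NKT2 cells as negative for CD49a and Sdc-1 with high ICOS, CD4 and TCRβ.

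Invariant NKT cells are T lymphocytes with a nearly fixed TCR α chain that recognize glycolipids presented by CD1d. They are selected in the thymus on double-positive thymocytes and acquire effector functions there. NKT1 cells depend on T-bet, respond to IL-15 and make IFN-γ, whereas NKT2 cells have the highest levels of the transcription factor PLZF (encoded by Zbtb16) and make IL-4. The subsets therefore resemble, within one TCR specificity, the type 1 and type 2 divisions of conventional helper T cells.

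The 6 libraries had total counts of 4784160 to 8895917, and 11657 to 12782 genes had at least 1 count in each. Levels are given in CPM, the counts of a gene for every 1000000 counts of the library after TMM scaling. Replicate libraries were further apart than counting error and are listed as separate samples, so each was kept as a replicate, although nothing says whether they came from separate animals, and p-values therefore measure the spread between these samples. In both subsets replicate 1 held Xist transcripts (194 CPM in NKT1 and 385 CPM in NKT2), and replicates 2 and 3 held Y-linked transcripts in their place, so replicate 1 stood apart in the same way in both groups. In bulk RNA a lower level can come from fewer cells with a transcript or from less of it in each cell, and these cannot be told apart.

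Of 11118 genes tested, 3054 (27.5%) were called different, at an edgeR adjusted p under 0.1 and a fold change of at least 1.5. Of these, 1526 (13.7%) were higher in NKT1 and 1528 (13.7%) were lower. These shares of all genes are the background for the counts of list members below. The calls included 455 genes at least 4-fold higher in NKT1 and 555 genes at least 4-fold lower. For 4627 genes (41.6%) the 3 libraries of one subset all lay above the 3 of the other, and this share is the background for the statements on overlap below. A total of 2666 genes (24.0%), some of which also had no overlap, had a 95% interval of the fold change that lay wholly within 1.5-fold in either direction. On upper-quartile scaling the median log2 fold change of all genes moved from 0 to -0.10, and 1283 of 3135 called genes (40.9%) were then higher in NKT1 against 49.97% with TMM. No called direction of a gene named below turned under any of the scalings tried.

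**Figure D1:**
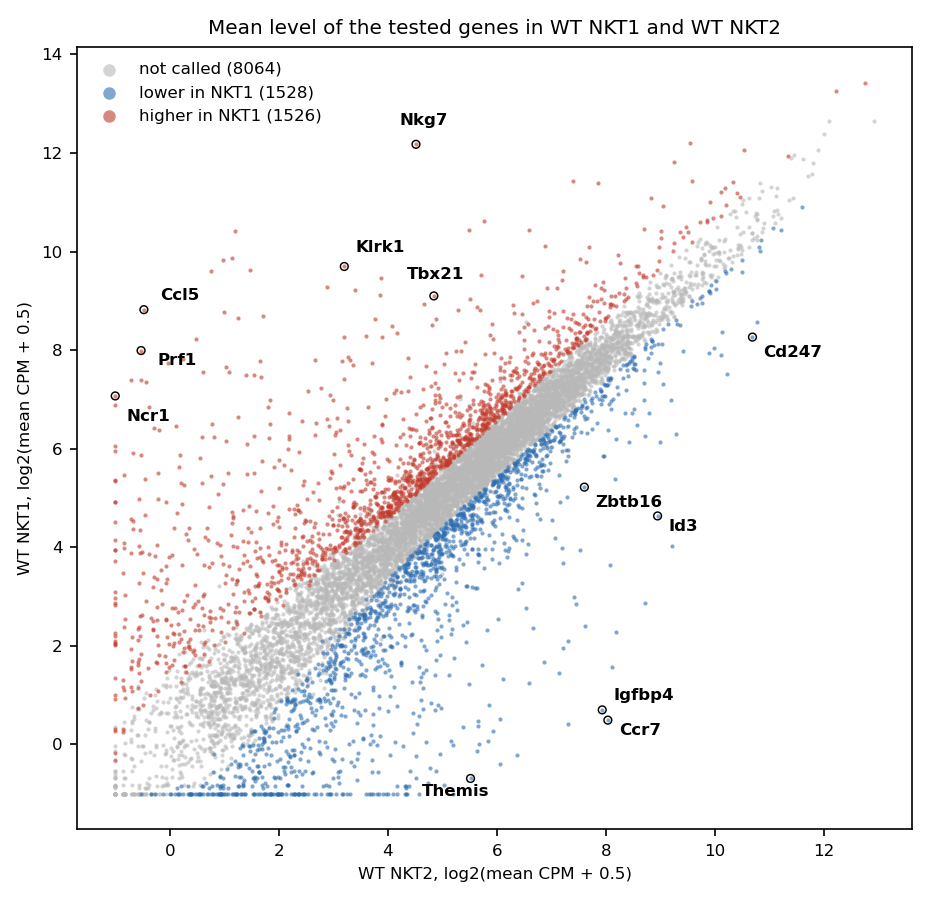
Mean level of each tested gene in WT NKT2 (horizontal) and WT NKT1 (vertical), both as log2 of the mean CPM plus 0.5 over 3 libraries. Each of the 11118 points is a gene; red points are the 1526 called higher in NKT1, blue points the 1528 called lower and grey points the rest, and 12 genes described in the text are labelled. Blue points along the bottom edge and red points along the left edge are genes at or near 0 in one subset.

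The markers that the 2 subsets are named for followed the labels. Tbx21 (T-bet, chromosome 11, 96959385 to 96976645 of NCBIM37) was at 565, 519.8 and 559 CPM in the NKT1 libraries and 44.6, 18.2 and 22.0 CPM in the NKT2 libraries. Its groups did not overlap, and NKT2 replicate 1 held the most of the NKT2 libraries. Zbtb16 (PLZF, chromosome 9, 48462416 to 48644050) was at 31.8, 34.0 and 44.5 CPM in the NKT1 libraries and 173, 184 and 226 CPM in the NKT2 libraries, again without overlap. The summed level of 6 NKT1 markers (Tbx21, Ifng, Cxcr3, Il2rb, Klrd1 and Nkg7) was 8779 to 9851 CPM in NKT1 and 312 to 454 CPM in NKT2. Gata3, the type 2 regulator of conventional helper cells, was at 235, 304 and 265 CPM in the NKT1 libraries and 261, 249 and 299 CPM in the NKT2 libraries, and its 95% interval of -0.28 to 0.26 on the log2 scale held no change of 1.5-fold. Of the proteins used as gates, which are no finding between the gated cells, Itga1 (CD49a) was at 279.7, 212 and 179 CPM in the NKT1 libraries and 1.23, 0 and 0.808 CPM in the NKT2 libraries, and Icos and Cd4 were lower in all NKT1 libraries. Sdc1, which the NKT2 gate excluded, was at 0.121, 0.191 and 1.24 CPM in the NKT1 libraries and 1.23, 0 and 0.647 CPM in the NKT2 libraries, and it was called lower in NKT1 only without NKT1 replicate 3 among the alternatives tried.

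Markers of other cell types moved with the groups only in part. Of 9 markers of conventional NK and CD8 T cells, 8 were tested and 7 were higher in NKT1, and their sum was 1022 to 1716 CPM in NKT1 against 14.1 to 20.03 CPM in NKT2. The 7 were Klrb1c, Ncr1, Cd8a, Gzma, Prf1, Irf8 and Klrg1, and Eomes, a defining NK and memory CD8 factor, had 35, 17 and 6 counts in the NKT1 libraries and 0, 1 and 0 in the NKT2 libraries. Of the CD3 and ζ chains of the TCR complex, Cd3d, Cd3e and Cd3g were not called (log2 fold changes 0.16, 0.48 and 0.46) and Cd247 was lower in NKT1 (-2.43). The part of such cells in the results on NK genes was not tested. The regulatory T cell list summed to 194 to 400 CPM in NKT1 and 881 to 1206 CPM in NKT2, but Foxp3 and Lrrc32 were at 0 counts in all 6 libraries, and most of the sum was Folr4. The γδ T cell genes in the table, Sox13 and 5830411N06Rik, summed to 29.6 to 49.95 CPM in NKT1 and 185 to 347 CPM in NKT2. Markers of double-positive thymocytes summed to 30.4 to 49.2 and 95.8 to 172 CPM with Rag2 and Dntt at 0 in both subsets, B cell markers to 3.72 to 7.61 and 4.36 to 8.79 CPM with Ms4a1 at 0, and red cell markers to at most 0.647 CPM. Myeloid markers summed to 24.3 to 37.9 and 17.8 to 47.4 CPM with S100a8 and S100a9 at 0, and stromal markers to 25.4 to 36.3 and 96.3 to 138 CPM with Foxn1 at 0, the latter mostly from Pecam1, which T cells can also express.

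The largest rises in NKT1 were in genes with no or nearly no counts in NKT2. Ncr1, which encodes the activating NK receptor NKp46, was at 189, 97.8 and 115 CPM in the NKT1 libraries and 0, 0 and 0 CPM in the NKT2 libraries, at least 247-fold higher. Here and below such bounds set the mean of the higher group against 3 counts per library of the lower group, and they cover counting error only. Klre1, a lectin-like receptor, was at 148, 103 and 102 CPM in the NKT1 libraries and 0, 0 and 0 CPM in the NKT2 libraries, at least 218-fold higher. Ccl5 (chromosome 11, 83339280 to 83344020), a chemokine that attracts T cells and monocytes, was at 637, 274 and 444 CPM in the NKT1 libraries and 0, 0.175 and 0.485 CPM in the NKT2 libraries, at least 835-fold higher. These genes, like the largest falls below, were picked for large fold changes without overlap, so their separation is no finding of its own. Prf1, the pore-forming protein of cytotoxic granules, was at 257, 248 and 256 CPM in the NKT1 libraries and 0.409, 0.175 and 0 CPM in the NKT2 libraries, at least 469-fold higher, and the potassium channel gene Kcnj8 was at 216, 121 and 164 CPM in the NKT1 libraries and 0, 0 and 0.323 CPM in the NKT2 libraries, at least 309-fold higher. The other leading rises were Gas7, Ifitm1, the SLP-76 family adaptor gene Clnk, the serpin Serpinb9b, Tmem37, Tgfa (TGF-α) and Tmem163, with 0 counts in all NKT2 libraries and bounds of 41.3-fold to 122-fold. Tmem163 varied most among them, at 45.9, 16.8 and 4.25 CPM in the NKT1 libraries.

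The largest falls were in genes with no or nearly no counts in NKT1. Ccr7 (chromosome 11, 99005510 to 99016391), the receptor that draws T cells to lymph nodes and the thymic medulla, was at 0, 0.764 and 1.95 CPM in the NKT1 libraries and 255, 268 and 263 CPM in the NKT2 libraries (log2 fold change -8.32, SE 0.55). Ccr9, the receptor for the thymic and gut chemokine CCL25, was at 0, 0.764 and 0 CPM in the NKT1 libraries and 50.3, 43.2 and 106 CPM in the NKT2 libraries. Themis, which encodes a TCR signalling adaptor of thymocytes, was at 0, 0 and 0.354 CPM in the NKT1 libraries and 40.3, 37.0 and 58.7 CPM in the NKT2 libraries, at least 92.7-fold lower in NKT1. The highest NKT1 value among these 3 genes was the 1.95 CPM of Ccr7 in replicate 3. The insulin-like growth factor binding protein gene Igfbp4 was at 0, 0 and 3.37 CPM in the NKT1 libraries and 164, 184 and 385 CPM in the NKT2 libraries. The alcohol dehydrogenase gene Adh1 was at 0, 0 and 2.48 CPM in the NKT1 libraries and 155, 136 and 181 CPM in the NKT2 libraries. The remaining leading falls were 4930452B06Rik, the GTPase-activating protein gene Arhgap24, Pstpip2, the adenylate kinase gene Ak7, Clstn3, Gm973 and the protease gene Lgmn, with log2 fold changes of -10.71 to -7.46. In NKT1 Arhgap24 and 4930452B06Rik had 0 counts in every library, so their fitted fold changes depend on the prior count.

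By size of the difference in CPM rather than by fold, the leading genes were mostly abundant in both subsets. Nkg7, a granule membrane protein of cytotoxic lymphocytes, was at 4879.7, 4270.4 and 4735 CPM in the NKT1 libraries and 32.7, 13.6 and 20.9 CPM in the NKT2 libraries. The long noncoding RNA gene AW112010 was at 4443, 4609.7 and 5096 CPM in the NKT1 libraries and 669, 827 and 748 CPM in the NKT2 libraries. The chemokine receptor gene Cxcr6 was at 3462, 4016 and 3403 CPM in the NKT1 libraries and 518, 681 and 631 CPM in the NKT2 libraries. The lysosomal protease gene Ctsd was at 4296 ± 364 CPM in NKT1 and 1483 ± 28.0 CPM in NKT2 (mean ± SD, n = 3), and the class I gene H2-D1 at 9847 ± 748 and 4796 ± 589 CPM. Among genes higher in NKT2, Rexo2, an oligoribonuclease, was at 167, 200.5 and 176 CPM in the NKT1 libraries and 1240.0, 1082 and 1267 CPM in the NKT2 libraries. Cd247, which encodes the TCR ζ chain, was at 290.2, 304 and 326 CPM in the NKT1 libraries and 1403, 1997 and 1555 CPM in the NKT2 libraries. Ramp1, a receptor activity-modifying protein, was at 301, 399 and 434 CPM in the NKT1 libraries and 1469.6, 1905 and 1863 CPM in the NKT2 libraries.

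Of 46 transcription factors tested, 16 were higher and 11 were lower in NKT1 (median log2 fold change 0.35, against 0 over all genes). The T-box, Runx and effector factors were mostly higher, with 10 of 13 higher and 1 lower (median 4.29). Hopx, a homeodomain protein without DNA binding that is induced by T-bet, was at 216, 132 and 156 CPM in the NKT1 libraries and 0.409, 0 and 0.162 CPM in the NKT2 libraries, at least 310.1-fold higher. Stat4, which transmits IL-12 signals, was at 444, 436 and 429 CPM in the NKT1 libraries and 2.45, 1.05 and 0.970 CPM in the NKT2 libraries. Runx3, which acts with T-bet in type 1 cells, was at 136, 126 and 96.7 CPM in the NKT1 libraries and 41.1, 29.9 and 28.3 CPM in the NKT2 libraries (log2 fold change 1.86, SE 0.23, adjusted p 2.46e-06). Runx2 was near 0 in NKT2 (0, 0.699 and 0 CPM) and at 34.8, 26.9 and 12.2 CPM in NKT1, whereas Runx1 was lower in NKT1 (log2 fold change -1.45). The effector regulators Prdm1 (Blimp-1), Bhlhe40 and Nfil3 had log2 fold changes of 4.63, 5.24 and 4.76.

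Factors of early T cell development made up most of the falls. Of 21 Id, E-protein, TCF1 and early T cell factors, 7 were lower and 5 were higher. Id3, an inhibitor of E proteins, was at 23.4, 24.1 and 25.5 CPM in the NKT1 libraries and 458, 584 and 440.2 CPM in the NKT2 libraries (log2 fold change -4.34, SE 0.26, adjusted p 6.31e-10). Its paralog Id2 went the other way, at 1618, 1583 and 1854 CPM in the NKT1 libraries and 1003, 1089.8 and 1227 CPM in the NKT2 libraries, and this call was near the fold minimum, which is 0.58 on the log2 scale. Its log2 fold change of 0.61 fell below the minimum on upper-quartile scaling (0.50) and when NKT2 replicate 1 (0.52), NKT2 replicate 2 (0.58) or NKT1 replicate 3 (0.52) was left out. Tcf7 (TCF1), a Wnt and Notch target that sets T cell identity, was at 68.5, 94.1 and 66.1 CPM in the NKT1 libraries and 505.05, 359.8 and 397 CPM in the NKT2 libraries. Its relative Lef1 was at 54.0, 81.5 and 75.1 CPM in the NKT1 libraries and 344, 281 and 399 CPM in the NKT2 libraries, and both were lower in all NKT1 libraries. Myb was at 0, 1.53 and 1.24 CPM in the NKT1 libraries and 87.3, 53.5 and 58.5 CPM in the NKT2 libraries, and Sox4, Tox and Tox2 were also lower in NKT1, by log2 fold changes of -4.61, -2.80 and -7.11. Klf2, a factor that promotes thymic egress, was higher in NKT1 and its NKT1 libraries ranged widely, at 417, 184 and 23.2 CPM in the NKT1 libraries and 19.6, 3.84 and 5.98 CPM in the NKT2 libraries (log2 fold change 4.45, SE 0.92, adjusted p 0.00246). Of 12 BTB-ZF, GATA and Maf factors, Zbtb16, Irf4 and Rora were lower in NKT1, Zbtb7a was higher, and Maf, with 48.9 ± 9.09 CPM in NKT1 and 66.5 ± 9.65 CPM in NKT2, was not called. The share of these factors called was 33.3%, near the 27.5% of all genes.

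**Figure D2:**
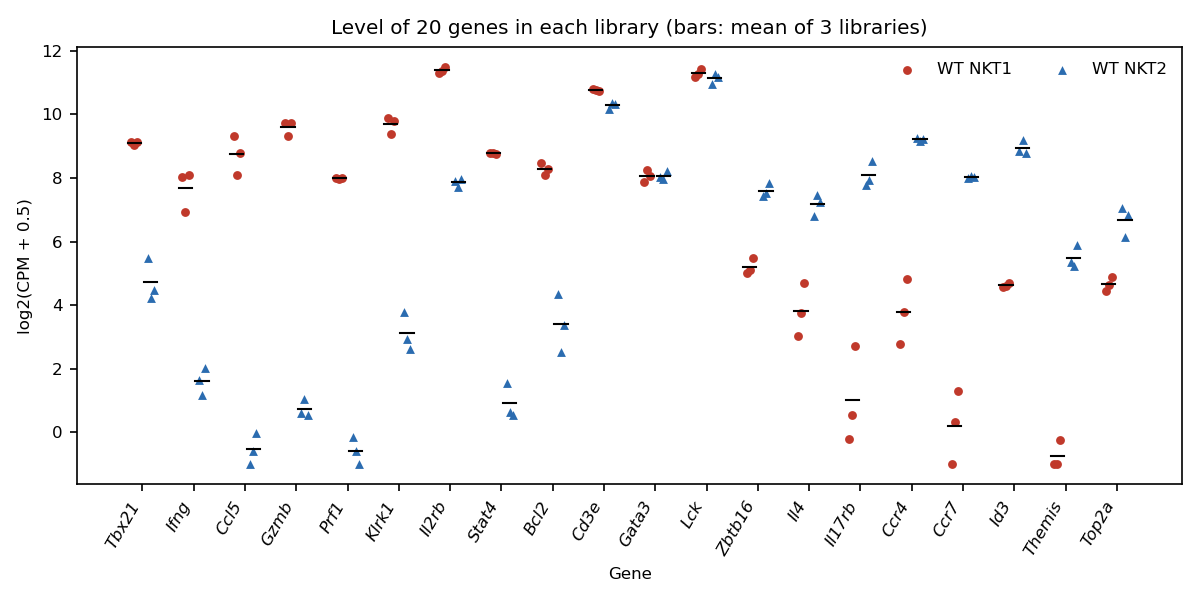
Level of 20 genes in each of the 6 libraries, as log2 of CPM plus 0.5; red circles are the 3 WT NKT1 libraries, blue triangles the 3 WT NKT2 libraries, and the short bars are group means. The groups overlap for Gata3 and Lck and for no other gene shown, and for Ccl5, Gzmb and Prf1 the NKT2 libraries sit at the bottom of the scale.

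Cytokine transcripts divided between the subsets. Of 10 type 1 cytokines and chemokines tested, 8 were higher in NKT1 and none was lower (median log2 fold change 5.23, or 2.53 with genes at the floor of one subset taken at their bound). Of 9 type 2 and type 17 cytokines tested, 6 were lower and none was higher (median -2.75, or -1.90 at the bounds). Ifng (chromosome 10, 117878103 to 117882948) was at 260.4, 123 and 272 CPM in the NKT1 libraries and 2.66, 1.75 and 3.56 CPM in the NKT2 libraries (log2 fold change 6.34, SE 0.35, adjusted p 4.27e-11). Xcl1, a chemokine for cross-presenting dendritic cells, was at 452, 299 and 490.1 CPM in the NKT1 libraries and 3.27, 0.874 and 4.203 CPM in the NKT2 libraries. Ccl4, a chemokine for monocytes and T cells, was at 17.4, 8.59 and 18.8 CPM in the NKT1 libraries and 0, 0 and 0 CPM in the NKT2 libraries. All 3 were higher in every NKT1 library. Ltb, which encodes lymphotoxin β, was abundant in both subsets and higher in NKT1, at 1327, 1415 and 1366 CPM in the NKT1 libraries and 448, 610.1 and 499 CPM in the NKT2 libraries. On the other side, Il4 (chromosome 11, 53416484 to 53432171) was at 7.73, 13.0 and 25.3 CPM in the NKT1 libraries and 110.2, 175 and 152 CPM in the NKT2 libraries (log2 fold change -3.27, SE 0.32, adjusted p 3.39e-07). NKT1 libraries thus held it at a low level that was not 0 and was highest in replicate 3. Among NKT1 libraries that replicate also held the most of several other genes lower in NKT1, among them Il17rb, Ccr4, Ccr7, Zbtb16, Il6ra, Ifngr2, Igfbp4 and Adh1. It did not hold the most Ccr9, Myb, Itgb3, Tcf7, Lef1, Cd200 or Hey1. These genes are examples and not a count of either kind. The part of carried-over NKT2 cells in these levels was not tested. Il13 (chromosome 11, 53444826 to 53448204), on the same chromosome, was at 0, 0 and 0.177 CPM in the NKT1 libraries and 18.2, 15.4 and 24.4 CPM in the NKT2 libraries, at least 39.5-fold lower in NKT1. Tnfsf11 (RANKL), which supports medullary epithelial cells of the thymus, was at 1.45, 1.53 and 2.66 CPM in the NKT1 libraries and 93.0, 99.8 and 96.7 CPM in the NKT2 libraries. Il21 had 0 counts in all NKT1 libraries and was at 6.34, 2.97 and 4.69 CPM in NKT2. Il17a was at or under 1 count in all 6 libraries, and Il16 and Tgfb1 did not pass the test.

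Receptors of the common γ chain family were higher in NKT1. Of 30 cytokine receptor genes tested, 18 were higher and 7 were lower in NKT1 (median 1.06, or 0.90 at the bounds), and of the 7 tested of the common γ chain family all were higher (median 1.99). Il2rb (CD122), the chain shared by the IL-2 and IL-15 receptors, was at 2513, 2639 and 2876 CPM in the NKT1 libraries and 240.4, 208 and 248 CPM in the NKT2 libraries (log2 fold change 3.53, SE 0.12, adjusted p 1.67e-15). Il4ra was at 97.2, 126 and 155 CPM in the NKT1 libraries and 5.11, 7.86 and 9.54 CPM in the NKT2 libraries. Il2ra (CD25) was at 25.7, 31.9 and 25.3 CPM in the NKT1 libraries and 0.818, 0.175 and 2.42 CPM in the NKT2 libraries. Il7r was higher by less, at 1052, 1105 and 1096 CPM in the NKT1 libraries and 475, 569 and 472 CPM in the NKT2 libraries, and Il2rg, the common chain itself, had a log2 fold change of 0.61. This was near the fold minimum, and the call was lost at 0.50 on upper-quartile scaling and at 0.55 without NKT2 replicate 1, without NKT1 replicate 2 or without NKT2 replicate 3. No NKT1 library of these 5 genes fell below an NKT2 library.

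Receptors of the IL-12, IL-18, IL-1 and IL-17 families divided evenly, with 4 of 12 higher and 4 lower. Il12rb2, the inducible IL-12 receptor chain, was at 207, 209 and 184 CPM in the NKT1 libraries and 3.07, 1.398 and 0.162 CPM in the NKT2 libraries, whereas the chain shared with the IL-23 receptor, Il12rb1, was lower in NKT1, at 49.3, 64.2 and 77.8 CPM in the NKT1 libraries and 119, 106 and 139 CPM in the NKT2 libraries. Both chains of the IL-18 receptor were higher, Il18rap at 201, 149 and 162 CPM in the NKT1 libraries and 8.58, 6.12 and 11.5 CPM in the NKT2 libraries and Il18r1 with a log2 fold change of 1.37. Il17rb, the IL-25 receptor, was at 0.362, 0.955 and 6.02 CPM in the NKT1 libraries and 217, 245 and 371 CPM in the NKT2 libraries (log2 fold change -6.93, SE 0.56, adjusted p 5.32e-07). The pairs of chains that form 1 receptor thus did not always move together. The IL-6 receptor chain Il6ra was at 2.66, 3.82 and 7.79 CPM in the NKT1 libraries and 179, 191 and 220.3 CPM in the NKT2 libraries, while the signalling chain Il6st was at 21.4, 10.9 and 15.9 CPM in the NKT1 libraries and 6.95, 5.24 and 6.14 CPM in the NKT2 libraries and higher in NKT1. The IFN-γ receptor chains were opposed in the same way: Ifngr1, the ligand-binding chain, was at 1375, 1307 and 1466 CPM in the NKT1 libraries and 89.7, 103 and 93.9 CPM in the NKT2 libraries. Ifngr2, the chain needed for signalling, was at 0.241, 0.191 and 1.95 CPM in the NKT1 libraries and 48.4, 51.9 and 49.95 CPM in the NKT2 libraries. Il10ra was at 99.8, 68.2 and 79.2 CPM in the NKT1 libraries and 0.613, 0.350 and 0.162 CPM in the NKT2 libraries, at least 152-fold higher in NKT1.

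Of 23 JAK-STAT genes, 9 were higher and 1 was lower in NKT1 (43.5% called, against 27.5% of all genes). The count of lower genes was 2 without NKT1 replicate 2 or NKT2 replicate 3 and 3 without NKT1 replicate 3. It was also 2 with DESeq2, with RLE scaling or at a mean of at least 50 counts, and 3 with upper-quartile scaling or without the fold minimum. The calls were mostly among the 12 feedback and response genes, of which 7 were higher and none was lower (median 0.98). Socs2, a STAT5 target, was at 70.4, 68.6 and 84.7 CPM in the NKT1 libraries and 2.25, 1.22 and 0.323 CPM in the NKT2 libraries. The kinases Pim1 and Pim2, also induced by STAT5, were at 97.6 ± 33.1 and 452 ± 34.9 CPM in NKT1 and 7.87 ± 3.56 and 38.6 ± 6.15 CPM in NKT2. Cish, which restrains IL-2 and IL-15 signals, had a log2 fold change of 2.65. Of the 11 kinases and STAT factors themselves 27.3% were called, near the 27.5% of all genes. Stat4 and Jak1 were higher, and Stat5b was lower, at 52.3, 66.6 and 52.1 CPM in the NKT1 libraries and 129.8, 115 and 114 CPM in the NKT2 libraries. Stat6, the IL-4 effector, had a log2 fold change of 0.56, under the fold minimum, which it passed without NKT2 replicate 2 (0.59).

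Chemokine receptors and egress genes moved in both directions. Of 20 tested, 13 were higher and 5 were lower in NKT1 (median 1.37). Cxcr3, a receptor for IFN-γ-induced chemokines, was at 687, 762 and 729.25 CPM in the NKT1 libraries and 114, 64.8 and 83.1 CPM in the NKT2 libraries. Ccr4, which binds chemokines made in the thymic medulla, was at 6.40, 13.4 and 27.6 CPM in the NKT1 libraries and 607, 574 and 594 CPM in the NKT2 libraries (log2 fold change -5.26, SE 0.37, adjusted p 9.27e-08). With Ccr7, Ccr9 and Ccr10 it made up the 4 chemokine receptors that were lower in NKT1. The S1P receptor S1pr1, which drives exit from the thymus, was lower in NKT1, at 11.1, 7.64 and 14.3 CPM in the NKT1 libraries and 31.1, 25.7 and 55.4 CPM in the NKT2 libraries. Cd69, which removes S1P receptor 1 from the surface, was higher, at 228, 199.9 and 261 CPM in the NKT1 libraries and 19.6, 19.2 and 21.7 CPM in the NKT2 libraries. Selplg, the P-selectin ligand, and Gpr183, an oxysterol receptor, were also higher (log2 fold changes of 2.25 and 2.45). Cxcr4, at 5.92, 2.48 and 5.14 CPM in the NKT1 libraries and 1.84, 1.22 and 4.203 CPM in the NKT2 libraries, did not pass the test.

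Of 15 integrin chains tested, 6 were higher and 2 were lower in NKT1 (53.3% called, against 27.5% of all genes). Apart from the gating protein CD49a, Itgb1, its β partner, was at 829, 596 and 628 CPM in the NKT1 libraries and 185, 119 and 133 CPM in the NKT2 libraries. Itga4 was at 58.6, 14.3 and 19.0 CPM in the NKT1 libraries and 8.18, 3.84 and 6.47 CPM in the NKT2 libraries. Itgb3, the β chain of the vitronectin receptor, was at 3.98, 6.49 and 0.886 CPM in the NKT1 libraries and 194, 136 and 144 CPM in the NKT2 libraries (log2 fold change -5.38, SE 0.37, adjusted p 6.52e-09) and was the larger of the 2 falls, the other being Itga5. The LFA-1 chains Itgal and Itgb2 were abundant in both subsets, and neither was called (log2 fold changes 0.10 and 0.33).

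Transcripts of the cytotoxic effector proteins were higher in NKT1. Of 7 granzyme, perforin and death ligand genes tested, 6 were higher in NKT1 and none was lower (median 5.31). Gzmb was at 851, 638 and 846 CPM in the NKT1 libraries and 1.02, 1.57 and 0.970 CPM in the NKT2 libraries and Gzma at 1145, 549.5 and 662 CPM in the NKT1 libraries and 3.07, 2.97 and 0.808 CPM in the NKT2 libraries. Fasl (chromosome 1, 163710820 to 163718626), a ligand that triggers cell death in its targets, was at 487, 597 and 586 CPM in the NKT1 libraries and 10.0, 16.1 and 15.7 CPM in the NKT2 libraries (log2 fold change 5.31, SE 0.20, adjusted p 2.04e-14). The groups of all 3 were far apart. Of 17 genes of granule matrix, proteases, release and protection, 6 were higher, 2 were lower, and 6 had an interval within 1.5-fold. Over all genes 27.5% were called and 24.0% had such an interval. Serglycin (Srgn), the proteoglycan that holds granzymes in granules, was at 976, 915 and 1094 CPM in the NKT1 libraries and 1134, 1117 and 1004 CPM in the NKT2 libraries. The protease gene Ctsc was at 377, 473 and 449 CPM in the NKT1 libraries and 339, 402 and 313 CPM in the NKT2 libraries. Lamp2 and Crtam were the members lower in NKT1, at log2 fold changes of -0.97 and -1.95.

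NK receptors and adaptors were far higher in NKT1. Of 47 listed genes, 44 were in the table and 29 had enough counts to be tested, of which 26 were higher and 1 was lower in NKT1 (median 5.63, or 5.20 at the bounds). Klrk1 (chromosome 6, 129560341 to 129573882), the activating receptor NKG2D, was at 936, 666 and 887 CPM in the NKT1 libraries and 13.3, 7.17 and 5.66 CPM in the NKT2 libraries. Klrd1 (CD94) was at 638, 464 and 681 CPM in the NKT1 libraries and 19.2, 5.24 and 5.82 CPM in the NKT2 libraries. Its inhibitory partner Klrc1 (NKG2A) was at 178, 135 and 174 CPM in the NKT1 libraries and 0.409, 0 and 0.323 CPM in the NKT2 libraries. Of the Klrd1 counts in NKT2, 94 stood in replicate 1, 30 in replicate 2 and 36 in replicate 3, while Klrc1 had at most 2 counts in each. The signalling adaptors Fcer1g and Tyrobp (DAP12) were at 523, 272 and 404 CPM in the NKT1 libraries and 1.84, 0.874 and 2.91 CPM in the NKT2 libraries and at 121, 52.5 and 89.3 CPM in the NKT1 libraries and 0.613, 0.175 and 0.970 CPM in the NKT2 libraries. The member that was lower was Cd247, which serves as an adaptor of some NK receptors as well as of the TCR. Klrb1a and Fcgr3 did not pass the test, at 3.98, 5.35 and 5.67 CPM in the NKT1 libraries and 9.61, 11.7 and 5.98 CPM in the NKT2 libraries and at 3.98, 6.30 and 4.78 CPM in the NKT1 libraries and 5.93, 6.99 and 7.92 CPM in the NKT2 libraries.

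The 18 lectin-like receptors tested lie on chromosome 6 between 122220614 and 130336892 of NCBIM37, 17 of them in a stretch that starts at Klrb1a, and neighbours in this NK gene complex were called in the same direction except at Klrb1a. Their log2 fold changes ranged from 3.43 for Klrg1 to 12.41 for Klre1 among the 17 that were higher, and the latter is a fitted value that depends on the prior count, since Klre1 had 0 counts in NKT2. The Klra (Ly49) genes are a family of related genes, and the reference genome is of another strain than BALB/c. Reads may therefore have been divided among Klra1, Klra3, Klra5, Klra7, Klra9 and Klra10 in ways that the counts do not show. The annotated spans of Klra9, Klra7, Klra10 and Klra3 also overlap.

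**Figure D3:**
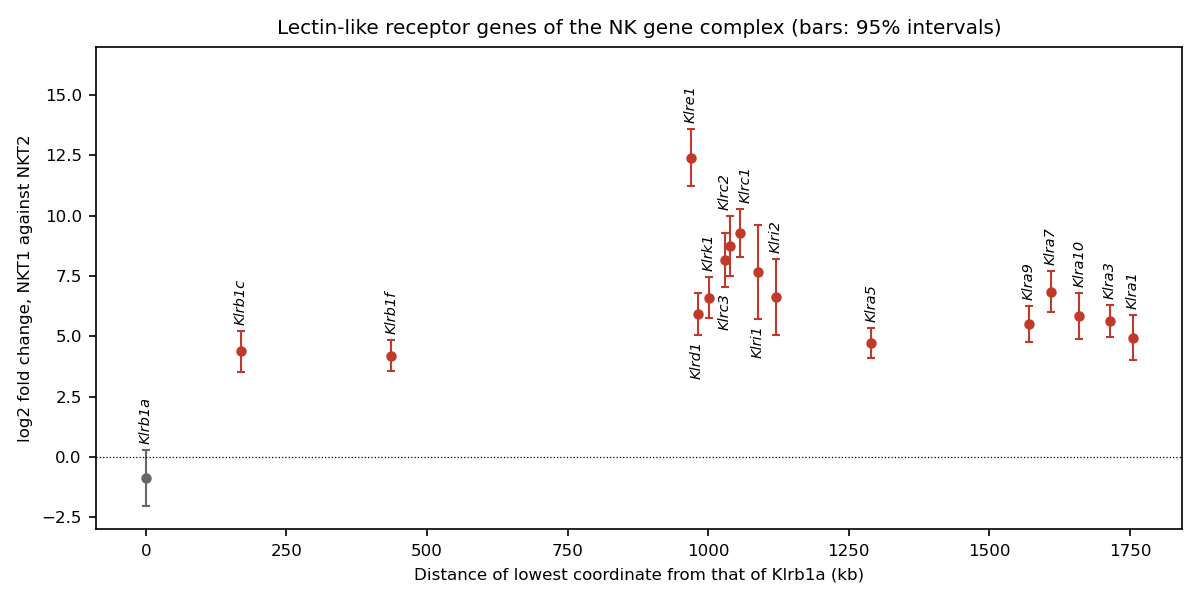
Log2 fold change of WT NKT1 against WT NKT2 for the 17 tested lectin-like receptor genes of the NK gene complex that start at or after Klrb1a, placed by distance in kb of their lowest coordinate from that of Klrb1a. Points are edgeR estimates from 3 libraries per subset and bars their 95% intervals. Red marks genes called higher in NKT1 and grey the gene not called, and only Klrb1a has an interval that crosses 0. For Klre1, with 0 counts in NKT2, both point and bar depend on the prior count, so the bar does not bound its fold change.

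The promoters of genes with these patterns can be read directly. Those shown are of Nkg7 and Klrk1, which were higher in NKT1, and of Plk1 and Top2a, which stand below for the mitotic genes that were lower. Each runs from 250 bases before to 50 bases after a start site, 5′ to 3′ on the strand of the gene, from the RefSeq promoter table of GRCm38.p6, and was placed in NCBIM37 by its 1 exact match. The motifs AGGTGTGA (a T-box site), TGTGGTT (a Runx site), TTTGAA (the cell cycle homology region of mitotic promoters) and CCAAT (the NF-Y box) were searched on both strands. The capitals mark AGGTGTGA in Nkg7, TGTGGTT in Klrk1, and TTTGAA and CCAAT on either strand in the other pair.
Nkg7 promoter, chr7:50692258-50692557, + strand: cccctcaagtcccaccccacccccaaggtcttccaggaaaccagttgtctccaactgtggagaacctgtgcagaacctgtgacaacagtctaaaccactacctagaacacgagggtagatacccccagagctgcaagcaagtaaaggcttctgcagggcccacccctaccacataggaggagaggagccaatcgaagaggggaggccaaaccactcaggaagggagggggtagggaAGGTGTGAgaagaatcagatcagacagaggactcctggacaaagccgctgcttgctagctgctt
Klrk1 promoter, chr6:129573833-129574132, - strand: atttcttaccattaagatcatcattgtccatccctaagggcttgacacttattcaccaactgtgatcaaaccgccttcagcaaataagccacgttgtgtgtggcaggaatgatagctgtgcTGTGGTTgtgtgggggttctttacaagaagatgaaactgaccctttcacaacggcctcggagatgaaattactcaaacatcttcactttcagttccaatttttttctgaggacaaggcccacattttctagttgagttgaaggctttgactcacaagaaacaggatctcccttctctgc
Plk1 promoter, chr7:129302699-129302998, + strand: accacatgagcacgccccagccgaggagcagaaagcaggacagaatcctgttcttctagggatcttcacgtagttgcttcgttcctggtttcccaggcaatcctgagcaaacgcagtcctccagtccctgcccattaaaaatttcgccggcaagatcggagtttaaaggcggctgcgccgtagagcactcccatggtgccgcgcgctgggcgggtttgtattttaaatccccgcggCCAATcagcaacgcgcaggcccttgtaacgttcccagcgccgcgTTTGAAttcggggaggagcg
Top2a promoter, chr11:98885454-98885753, - strand: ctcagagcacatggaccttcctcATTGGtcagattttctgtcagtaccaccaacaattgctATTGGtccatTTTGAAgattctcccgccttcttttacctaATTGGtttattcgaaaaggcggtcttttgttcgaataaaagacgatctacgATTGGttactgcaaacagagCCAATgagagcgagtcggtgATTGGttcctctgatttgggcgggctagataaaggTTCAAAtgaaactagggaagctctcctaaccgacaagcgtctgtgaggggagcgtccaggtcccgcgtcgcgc

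TGTGGTT stood in the promoters of 7 of the 24 NK receptor and adaptor genes that matched the table by symbol (29.2%; 29 were tested), against 6.09% of all 27025 genes of the table. AGGTGTGA stood in 1.48% of all genes of the table and in none of those 24. The list includes the related Klra genes, so its promoters cannot be counted as independent of each other. Over all tested genes promoters matched by symbol for 8056 of 11118, which is less than 80%, so the same check covers only part of them. Among matched genes AGGTGTGA stood in 0.982% of those higher in NKT1, 1.09% of those lower and 0.96% of those not called. For TGTGGTT these shares were 6.52%, 5.52% and 4.32%. No conclusion is drawn from them for the genes without a match. A match of letters is a description of the sequence and not a bound site.

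The remaining surface receptors were divided. Of 9 SLAM family genes tested, 4 were higher and 2 were lower in NKT1. Slamf7 was at 304, 303 and 284 CPM in the NKT1 libraries and 0.613, 1.57 and 0.485 CPM in the NKT2 libraries. Cd244 (2B4) was at 124, 47.0 and 85.7 CPM in the NKT1 libraries and 0.613, 0.350 and 0 CPM in the NKT2 libraries. Slamf6, one of the receptors through which double-positive thymocytes select NKT cells, was at 41.4, 67.0 and 99.9 CPM in the NKT1 libraries and 519, 434 and 585 CPM in the NKT2 libraries. Sh2d1a (SAP), the adaptor it signals through, was at 76.5, 88.2 and 84.5 CPM in the NKT1 libraries and 261, 286 and 244 CPM in the NKT2 libraries. Slamf1, which acts with Slamf6 in that selection, did not pass the test (log2 fold change -0.58, adjusted p 0.111). It was called lower on RLE scaling (-0.61), on upper-quartile scaling (-0.68), at a mean of at least 50 counts (-0.62), and without NKT1 replicate 2 (-0.73), NKT2 replicate 2 (-0.71) or NKT1 replicate 3 (-0.86). Of 26 costimulatory and inhibitory receptors, 11 were higher and 7 were lower, the latter including the gating protein gene Icos. Cd2 was at 746, 732 and 740.2 CPM in the NKT1 libraries and 36.6, 42.1 and 76.1 CPM in the NKT2 libraries. Cd200 was at 0, 1.53 and 0 CPM in the NKT1 libraries and 45.2, 46.5 and 59.8 CPM in the NKT2 libraries and Tnfrsf4 (OX40) at 0.483, 0.382 and 2.66 CPM in the NKT1 libraries and 28.8, 28.5 and 35.2 CPM in the NKT2 libraries. Lag3, an inhibitory receptor for MHC class II, was at 7.73, 5.16 and 2.48 CPM in the NKT1 libraries and 56.6, 41.4 and 32.7 CPM in the NKT2 libraries. Cd28 was at 369.9, 428 and 370.2 CPM in the NKT1 libraries and 576, 504.52 and 607 CPM in the NKT2 libraries, with a log2 fold change of -0.53 that was short of the fold minimum but passed it on upper-quartile scaling (-0.63) and without NKT1 replicate 2 (-0.61) or NKT2 replicate 2 (-0.62). Ctla4 was low in both subsets and was not called.

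Of 73 genes of the core TCR signalling pathway, 19 were higher and 5 were lower in NKT1 (median 0.26), so that 32.9% were called against 27.5% of all genes. An interval within 1.5-fold was found for 16 of the 73, against 24.0% of all genes. Among these was Lck, at 2303, 2477 and 2720.4 CPM in the NKT1 libraries and 1999, 2436 and 2298 CPM in the NKT2 libraries. Syk, the relative of ZAP-70, was at 6.40, 3.63 and 1.95 CPM in the NKT1 libraries and 0.204, 0 and 0.162 CPM in the NKT2 libraries (log2 fold change 4.84, SE 1.25, adjusted p 0.00444). Ppp3cc, a catalytic chain of calcineurin, was at 183, 175 and 68.7 CPM in the NKT1 libraries and 22.7, 10.3 and 22.6 CPM in the NKT2 libraries. Spry2, an inhibitor of receptor-driven MAP kinase signals, was at 475, 342 and 598 CPM in the NKT1 libraries and 49.1, 55.7 and 43.5 CPM in the NKT2 libraries. The 5 members lower in NKT1 were Cd247, Cd4, Themis, Rasa1 and Ubash3b, of which Cd4 encodes a gating protein and is no finding. Of 11 TCR genes that the study had singled out for NKT1, all were called higher. Of 7 that it had singled out for NKT2 or NKT17, 4 were called lower, among them Icos, which encodes a gating protein. The study chose both lists by their expression in these subsets, and these libraries may have been used, so they are not independent evidence of a direction. Among them Lat2 (NTAL), an adaptor related to LAT, was at 61.0, 24.3 and 28.2 CPM in the NKT1 libraries and 0.409, 0.874 and 0.808 CPM in the NKT2 libraries, and Ptpn22 at 413, 513 and 565 CPM in the NKT1 libraries and 87.7, 106 and 109 CPM in the NKT2 libraries. Ubash3a, an inhibitor of ZAP-70 signalling, was at 176, 143 and 202 CPM in the NKT1 libraries and 16.6, 20.97 and 24.7 CPM in the NKT2 libraries. Cd5 was at 245, 281 and 304 CPM in the NKT1 libraries and 428, 462 and 597 CPM in the NKT2 libraries (log2 fold change -0.84).

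Immediate-early genes, which rise within minutes of TCR or stress signals, did not move as a block. Of 20 tested, 7 were higher and 3 were lower in NKT1, and 4 were higher without NKT2 replicate 2. Nr4a1 (Nur77), a reporter of TCR signals, was at 2.54, 2.29 and 2.83 CPM in the NKT1 libraries and 74.8, 22.4 and 61.3 CPM in the NKT2 libraries (log2 fold change -4.36, SE 0.95, adjusted p 0.00354). The Egr cofactor gene Nab2 was at 57.0, 35.3 and 36.7 CPM in the NKT1 libraries and 160.2, 84.1 and 90.9 CPM in the NKT2 libraries. Egr2 was lower in NKT1 with a log2 fold change of -0.94 (adjusted p 0.0425), a call that was lost without NKT1 replicate 1 or without NKT2 replicate 1 (edgeR adjusted p 0.107 and 0.136). Fosl2 was higher in NKT1, at 35.7, 22.9 and 20.9 CPM in the NKT1 libraries and 7.97, 2.10 and 3.72 CPM in the NKT2 libraries. Fos and Jun did not pass the test, and their libraries spread widely, with Fos at 285, 86.9 and 359 CPM in the NKT1 libraries and 191, 82.0 and 194 CPM in the NKT2 libraries. The summed level of the list was 2999 to 5710 CPM in NKT1 and 1745 to 2982 CPM in NKT2. Of 17 heat shock and dissociation genes, 2 were higher and 3 were lower (29.4% called, near the 27.5% of all genes). Their sum was 6371 to 7709 CPM in NKT1 and 6557 to 7995 CPM in NKT2. The part of cell handling in these values was not tested.

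Cell cycle genes were lower in NKT1. Of 73 tested, 47 were lower and 3 were higher (median log2 fold change -1.05), against 13.7% of all genes in each direction. Of 25 mitotic genes, 20 were lower and none was higher (median -1.25). Mki67, the proliferation antigen Ki-67, was at 13.4, 15.1 and 9.92 CPM in the NKT1 libraries and 37.4, 22.7 and 26.0 CPM in the NKT2 libraries (log2 fold change -1.16, SE 0.30, adjusted p 0.00513). Top2a (chromosome 11, 98854257 to 98885503), a topoisomerase needed for chromosome separation, was at 21.1, 24.3 and 29.2 CPM in the NKT1 libraries and 133, 70.6 and 113 CPM in the NKT2 libraries, and the mitotic kinase gene Plk1 (chromosome 7, 129302951 to 129313389) at 2.78, 5.92 and 2.83 CPM in the NKT1 libraries and 24.5, 18.0 and 29.3 CPM in the NKT2 libraries. No NKT1 library of these 3 genes reached the lowest NKT2 library, yet none was at 0 in NKT1. Among 31 replication genes 20 were lower, with Gins1, a subunit of the replicative helicase complex, at 1.45, 3.44 and 1.59 CPM in the NKT1 libraries and 9.61, 10.8 and 11.6 CPM in the NKT2 libraries and the thymidylate synthase gene Tyms at 13.1 ± 2.50 CPM in NKT1 and 59.5 ± 9.53 CPM in NKT2, and Cdt1, which licenses origins, was the 1 member that was higher. Of 17 cyclins, kinases and inhibitors, 7 were lower and 2 were higher. The 2 that were higher were the inhibitor gene Cdkn2d (log2 fold change 1.00) and Ccnd3 (cyclin D3), at 1042, 868 and 837 CPM in the NKT1 libraries and 178, 178 and 197 CPM in the NKT2 libraries (log2 fold change 2.31, SE 0.13, adjusted p 5.89e-12). Ccnd2 was not called, at 655, 657 and 515 CPM in the NKT1 libraries and 807, 647 and 654 CPM in the NKT2 libraries.

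The promoters of the mitotic genes share letters that the list did not use. Of the 20 mitotic genes with a promoter in the table, 15 (75.0%) held both TTTGAA and CCAAT, as Plk1 and Top2a do, against 7.97% of all genes of the table. Of 26 matched replication genes, 3 (11.5%) held both.

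Of 15 BCL-2 family genes tested, 5 were higher and 1 was lower in NKT1 (40.0% called, against 27.5% of all genes). Bcl2, which protects against cell death and is maintained by IL-7 and IL-15, was at 353, 275 and 310.2 CPM in the NKT1 libraries and 19.8, 5.24 and 9.86 CPM in the NKT2 libraries (log2 fold change 4.77, SE 0.45, adjusted p 2.58e-06). The pro-apoptotic genes Bcl2l11 (Bim) and Bbc3 (Puma) were also higher, at 71.4, 66.8 and 38.3 CPM in the NKT1 libraries and 10.0, 4.02 and 8.57 CPM in the NKT2 libraries and at 40.4, 17.0 and 11.3 CPM in the NKT1 libraries and 7.77, 3.50 and 4.04 CPM in the NKT2 libraries. Bax was at 121, 103 and 107 CPM in the NKT1 libraries and 145, 144 and 124 CPM in the NKT2 libraries and was not called. Mcl1 was at 272, 165 and 57.9 CPM in the NKT1 libraries and 139.8, 26.0 and 33.5 CPM in the NKT2 libraries and was not called either (log2 fold change 1.33), but it was called higher without NKT2 replicate 1 (2.46, edgeR adjusted p 0.0532).

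**Figure D4:**
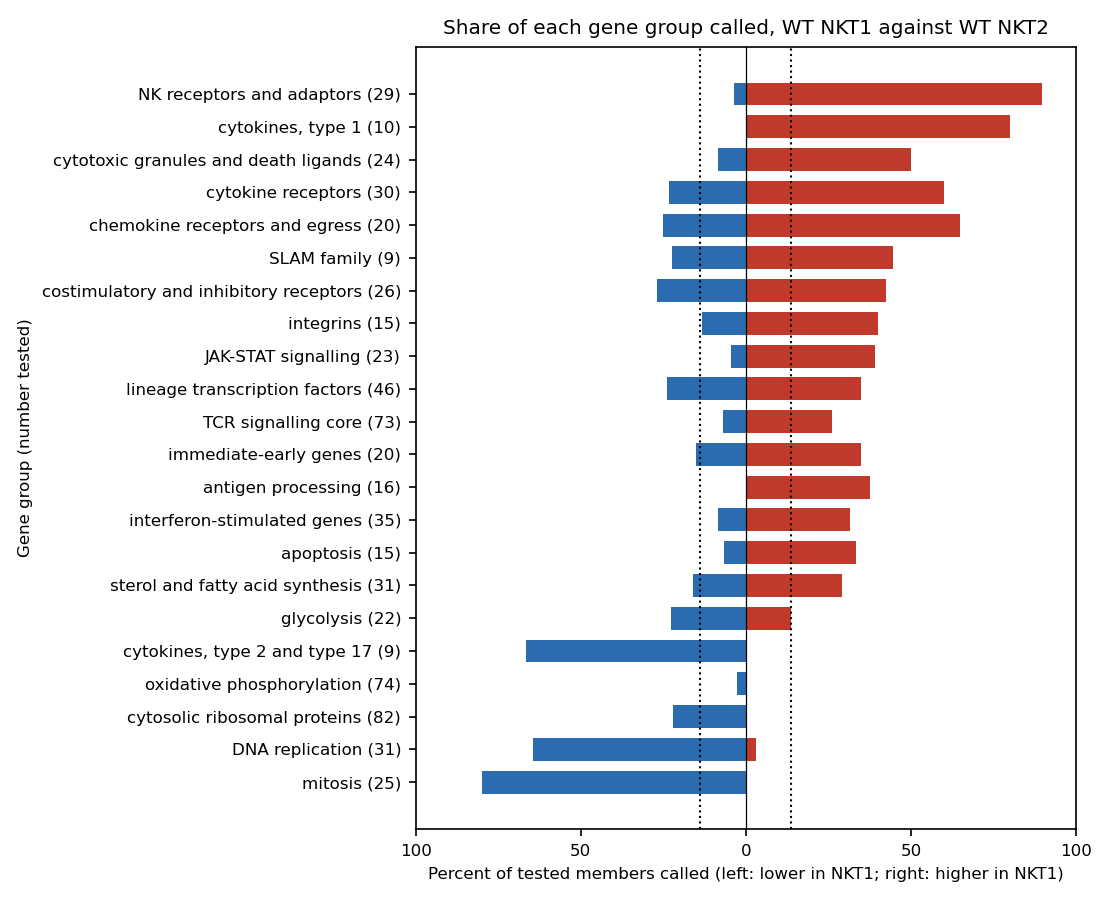
Share of tested members of 22 gene groups that were called higher (red, to the right) or lower (blue, to the left) in WT NKT1 than in WT NKT2, in percent, with the number tested beside each name. The dotted lines stand at 13.7%, the share of all tested genes called in each direction. NK receptors reach furthest right and mitosis furthest left.

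Housekeeping pathways differed by small amounts. Of 82 cytosolic ribosomal protein genes, 80 had a lower mean estimate in NKT1 and 60 lay below without overlap, against 41.6% of all genes in either direction, but the median difference was -0.41 and 18 passed the fold minimum. This count was 34 without NKT1 replicate 1 and 7 without NKT1 replicate 2, and the median was -0.51 on upper-quartile scaling. Rplp0 was at 2065, 1702 and 1998 CPM in the NKT1 libraries and 3099.6, 3240.2 and 2928 CPM in the NKT2 libraries and Rps26 at 242, 144 and 202 CPM in the NKT1 libraries and 372, 353 and 366 CPM in the NKT2 libraries, while Rpl5 was at 2904, 3051 and 3184 CPM in the NKT1 libraries and 3017, 3988 and 3559 CPM in the NKT2 libraries and was not called. Of 74 oxidative phosphorylation genes, 2 were lower (Ndufc2 and Uqcrq) and none was higher (median -0.23). The share called was 2.70%, against 27.5% of all genes. An interval within 1.5-fold was found for 50 of the 74, against 24.0% of all genes. The count of lower genes was 7 on upper-quartile scaling, 5 without NKT2 replicate 1, and 4 without NKT1 replicate 1 or NKT1 replicate 3.

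Of 22 glycolysis genes, 3 were higher and 5 were lower in NKT1 (36.4% called, against 27.5% of all genes). On upper-quartile scaling 9 were lower. The glucose transporter gene Slc2a3 was at 174, 209 and 169.7 CPM in the NKT1 libraries and 40.3, 40.4 and 42.2 CPM in the NKT2 libraries. The lactate transporter gene Slc16a1 was at 25.2, 35.3 and 39.9 CPM in the NKT1 libraries and 77.9, 76.7 and 86.8 CPM in the NKT2 libraries. Aldoa had a 95% interval of -0.28 to 0.16 on the log2 scale. Of 31 sterol and fatty acid synthesis genes, 9 were higher and 5 were lower (median 0.02). The share called was 45.2%, against 27.5% of all genes. The elongase gene Elovl5 was at 374, 342 and 349 CPM in the NKT1 libraries and 87.9, 87.7 and 93.8 CPM in the NKT2 libraries. The desaturase gene Scd2 was at 54.6, 70.3 and 47.5 CPM in the NKT1 libraries and 232, 223 and 297 CPM in the NKT2 libraries. Of 11 amino acid and iron transport genes, 1 was higher and 4 were lower (45.5% called, against 27.5% of all genes). The iron importer gene Slc11a2 was at 148, 142 and 151 CPM in the NKT1 libraries and 65.8, 53.5 and 80.5 CPM in the NKT2 libraries. The amino acid transporter gene Slc7a6 was at 136, 154 and 167 CPM in the NKT1 libraries and 305, 273 and 301 CPM in the NKT2 libraries.

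Of 35 interferon-stimulated genes, 11 were higher and 3 were lower in NKT1 (median 0.30), against 13.7% of all genes in each direction. On upper-quartile scaling 9 were higher and 5 were lower. Ifit3 was at 71.1, 72.6 and 66.1 CPM in the NKT1 libraries and 11.4, 18.3 and 13.4 CPM in the NKT2 libraries. The GTPase gene Iigp1, induced by IFN-γ, was at 0.241, 6.87 and 4.07 CPM in the NKT1 libraries and 32.9, 55.7 and 40.1 CPM in the NKT2 libraries and thus lower in the subset with more Ifng. Of 16 class I antigen processing genes, 6 were higher and none was lower (37.5% called, against 27.5% of all genes). However, 1 was lower when NKT1 replicate 1, NKT1 replicate 2, NKT2 replicate 2 or NKT2 replicate 3 was left out. H2-K1 was at 2393, 2501 and 2576 CPM in the NKT1 libraries and 1067, 1312 and 1129 CPM in the NKT2 libraries. B2m, the light chain of class I molecules, was not called, at 4445, 3321 and 5071 CPM in the NKT1 libraries and 3849.7, 3950.4 and 3633 CPM in the NKT2 libraries. The immunoproteasome gene Psmb8 was at 1008, 1076 and 1136 CPM in the NKT1 libraries and 1234, 1489.6 and 1398 CPM in the NKT2 libraries. Of 17 RGS and purinergic genes, 6 were higher and 5 were lower (64.7% called, against 27.5% of all genes). Rgs1, which dampens chemokine receptor signals, was at 639, 251 and 575 CPM in the NKT1 libraries and 37.4, 9.96 and 27.3 CPM in the NKT2 libraries. The adenosine receptor gene Adora2a was at 103, 112 and 124 CPM in the NKT1 libraries and 9.61, 8.74 and 8.57 CPM in the NKT2 libraries. The ATP-gated channel P2rx7 was at 0.724, 3.82 and 4.43 CPM in the NKT1 libraries and 39.0, 22.2 and 30.2 CPM in the NKT2 libraries and its relative P2rx4 at 3.98, 15.8 and 5.85 CPM in the NKT1 libraries and 47.6, 45.8 and 55.3 CPM in the NKT2 libraries, both higher in NKT2. Of 12 Notch pathway genes, Dtx1 (Deltex1) and Nrarp were higher, and Notch2 and Hey1 were lower. The share called was 33.3%, near the 27.5% of all genes. The call of Notch2 (log2 fold change -0.59) was lost without NKT1 replicate 1 (-0.55), NKT1 replicate 3 (-0.51) or NKT2 replicate 3 (-0.43). Dtx1 was at 50.7, 21.8 and 21.1 CPM in the NKT1 libraries and 0.409, 0.350 and 0.323 CPM in the NKT2 libraries. Hey1, a Notch-induced repressor, was at 0.966, 1.15 and 0 CPM in the NKT1 libraries and 104, 30.6 and 47.4 CPM in the NKT2 libraries. Notch1 was not called, at 99.2, 78.9 and 62.2 CPM in the NKT1 libraries and 93.8, 59.8 and 64.0 CPM in the NKT2 libraries.

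The most abundant genes with an interval within 1.5-fold were Actg1, Laptm5, Eef1a1, Ddx5, Coro1a, Rpl5, Ppia, B2m, Lck and Hspa8. Actg1 was at 5207, 5211 and 5557 CPM in the NKT1 libraries and 4227, 4164 and 3907 CPM in the NKT2 libraries, which did not overlap, although its fold change was small (95% interval 0.21 to 0.54 on the log2 scale). Hspa8 was at 3896, 3506 and 3259 CPM in the NKT1 libraries and 4075, 3628 and 2981 CPM in the NKT2 libraries, with an interval of -0.46 to 0.45.

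The same contrast in SKG mice, in other libraries of the same fit, gave 2074 called genes (18.7%), and 38.9% of genes had groups that did not overlap. Of the 3054 calls in WT, 1487 (48.7%) were called in the same direction in SKG, which is 71.7% of the SKG calls, and 24 were called in the opposite direction. Among the 1010 WT calls of at least 4-fold, 692 were called in the same direction. The difference between the genotypes was tested by an interaction term, which called 430 genes (3.87%), 334 of them among the WT calls. Of those 334, the difference between subsets was larger in WT for 204, larger in SKG for 33, and of opposite sign for 97. Choosing genes by their WT call favours a larger difference in WT, because the same WT libraries enter both tests. The split is therefore a description only.

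The genes with the smallest adjusted p of the interaction among WT calls mostly had a smaller difference in SKG, and the same limit of selection applies to them. Fasl was at 489, 377 and 438 CPM in SKG NKT1 and 112, 66.2 and 104 CPM in SKG NKT2, so its log2 difference was 2.21 in SKG and 5.31 in WT (interaction -3.10, SE 0.25, adjusted p 1.20e-07). The glutaminyl cyclase gene Qpct was at 319, 369.5 and 319 and 235, 288 and 219 CPM in the same SKG libraries, and the membrane protein gene Ms4a4b at 2507, 2665 and 2553 and 990.1, 833 and 883 CPM. In each of these 3 genes the SKG NKT2 libraries were higher than the WT NKT2 libraries. Among genes lower in WT NKT1, the kinase gene Matk had log2 differences of -5.18 in WT and -2.11 in SKG, and the nucleoside transporter gene Slc29a1 of -2.07 and -0.14. The transferrin gene Trf was higher in NKT1 in both genotypes and by more in SKG, with log2 differences of 1.11 in WT and 5.64 in SKG. Il2ra changed sign, at 13.2, 7.71 and 13.7 CPM in SKG NKT1 and 21.6, 17.0 and 38.2 CPM in SKG NKT2. Tbx21 and Zbtb16 had interactions of 0.49 and 0.34 that did not pass (adjusted p 0.785 and 0.665).

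**Figure D5:**
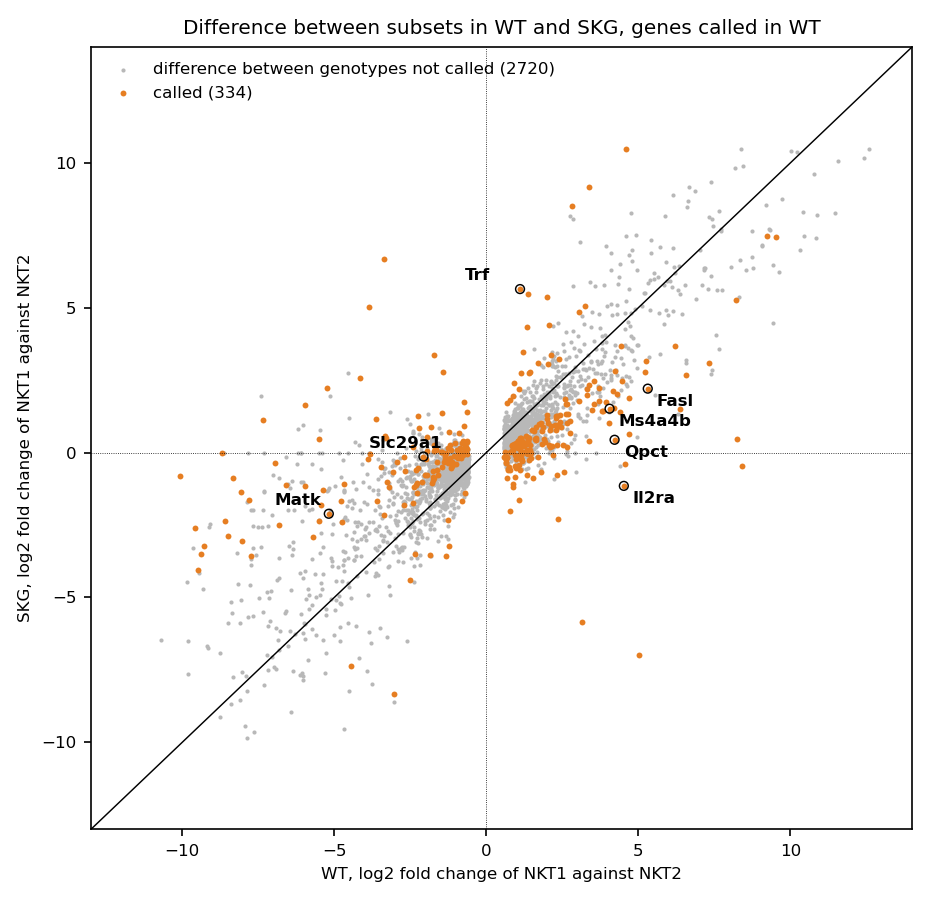
Log2 fold change of NKT1 against NKT2 in WT (horizontal) and in SKG (vertical) for the 3054 genes called in WT, estimated from separate libraries, 3 per group. Orange points are the 334 genes whose difference between genotypes was called, grey points the rest, and the line marks equal values; the labelled orange genes Fasl, Qpct, Ms4a4b and Il2ra lie below the line and Matk, Slc29a1 and Trf above it.

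The third subset gave a point of reference. On the log2(CPM + 1) scale, the mean of WT NKT17 lay nearer to NKT2 than to NKT1 for 959 of the 1526 genes higher in NKT1 (62.8%) and for 862 of the 1528 genes lower in NKT1 (56.4%). Tbx21 was at 0.825 ± 0.553 CPM in NKT17 (mean ± SD, n = 3), nearer to NKT2, and Zbtb16 at 162 ± 54.1 CPM. Ccr7 was at 45.5 ± 2.87 CPM in NKT17 and Il2rb at 298 ± 22.0 CPM. These are descriptions and carry no test.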

How the data were processed

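Reads of thymic NKT1, NKT2 and NKT17 cells sorted from WT and SKG mice were sequenced as 50-base single ends after poly-A capture and full-length cDNA synthesis. According to the study's methods the authors discarded spike-in, adapter, tRNA and rRNA reads, aligned the rest with TopHat 1.4.1 to mm9, filtered low-complexity reads and counted them per gene with HTSeq in union mode. The submitters' processing notes list mm10, hg19, Bowtie 1.0.0, TopHat 1.4.1 and HTSeq 0.7.1, so the build is uncertain, and the annotation and strand setting were not given in the sources used here. The deposited table holds raw counts for 23337 gene symbols, and 2 of its columns, which belong to no listed sample, were not used.

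Genes with enough counts by filterByExpr were fitted in all 18 libraries with the robust quasi-likelihood test of edgeR 4.0.16 (R 4.3.3, TMM scaling, 6 groups). Called genes had a Benjamini-Hochberg adjusted p under 0.1 and a fold change of at least 1.5, as in the study. SE is the log2 fold change divided by the root of F. Total counts of 4784160 to 8895917 in the NKT1 and NKT2 libraries of WT mice limit precision for low genes, and 3 counts per library were taken as the floor, whose bounds cover counting error only. A permutation of 3 libraries against 3 cannot give a p below 0.1. The genes named are the 12 largest called rises and 12 largest called falls with a mean of at least 20 CPM in the higher subset and no overlap, the 6 of largest CPM difference each way, in each list the 3 largest calls each way, the 2 most abundant members not called and members marked in advance, the 6 smallest interaction p each way among called genes and the 10 most abundant genes within 1.5-fold. A few other members of the lists were named after their values were seen. The subsets, lists and rule were chosen with earlier results of these data known. Coordinates are of GENCODE M1 on NCBIM37 and promoters are from RefSeq. Alternatives were DESeq2 1.42.0, other scalings, filters and thresholds, a replicate block, fewer libraries and leaving out each library. A few genes that the rule names are not reported here.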

Additional observations from a re-analysis of the deposited data

Results flagged for a closer look

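For 40 of the genes named above, the difference between NKT1 and NKT2 was not the same in WT and SKG mice by the interaction term of the edgeR fit (adjusted p under 0.1 and a difference of at least 1.5-fold). The values below are the log2 difference in SKG minus that in WT. SKG and WT libraries came from different mice, with 3 libraries per group.

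Among receptors and their signalling genes the values were -5.67 for Il2ra, -3.04 for Il4ra, -1.14 for Il7r, -2.96 for Stat4, -1.62 for Cish and -1.87 for Pim2, all of which were higher in WT NKT1. They were -2.40 for Cd2, -0.73 for Cxcr6, -1.55 for Gpr183 and -3.11 for Itga4 among surface proteins that were higher in WT NKT1. For Lag3, Ccr10 and Itgb3, which were lower in WT NKT1, they were -5.30, 3.08 and 4.09. Among genes of TCR signalling the values were -1.04 for Ptpn22, -1.29 for Ubash3a, 1.81 for Spry2, 0.70 for Cd247 and 5.61 for Themis.

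The transcription and Notch genes Bhlhe40, Runx2, Lef1 and Dtx1 had values of -2.09, -3.90, 0.90 and -4.88. For effector molecules they were -3.10 for Fasl, -1.66 for Ltb, 2.25 for Il4, 4.98 for Il13, 2.78 for Tnfsf11 and 1.07 for Lamp2. The log2 differences of Il4, Il13 and Tnfsf11 were below 0 in both genotypes, and in SKG they were -1.02, -3.05 and -2.91. The remaining genes were Qpct (-3.78), Ms4a4b (-2.54), AW112010 (-0.97), Elovl5 (-0.69), H2-K1 (-0.68), Rexo2 (0.90), Scd2 (1.10), Slc29a1 (1.93), Matk (3.07), Trf (4.54), Gm973 (4.15) and Arhgap24 (9.24). The value of Arhgap24 depends on the prior count, since WT NKT1 had 0 counts. Of the 40 interactions, 29 were called under every alternative tried. Bhlhe40 was not called without SKG NKT2 replicate 3 (-1.81, edgeR adjusted p 0.121), Cd247 without WT NKT2 replicate 2 (0.55), Elovl5 without SKG NKT2 replicate 2 (-0.56) and Gpr183 with a replicate block in the libraries compared alone (edgeR adjusted p 0.101). The other 7 were less stable, and the call of each was lost without several of the libraries in turn. Arhgap24 was called in 8 of 21 alternatives, Gm973 in 15 of 21, AW112010 and Spry2 in 9 of 22, Lamp2 in 10 of 22, Lef1 in 13 of 22 and Lag3 in 14 of 22. Arhgap24 and Spry2 were also not called with the replicate block.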

How the results depend on the processing

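The count of genes called between WT NKT1 and WT NKT2 was 3054, and it was 3186 with DESeq2, 3058 with RLE scaling, 3135 with upper-quartile scaling, 3214 without the filter on low counts, 2276 with a mean of at least 50 counts, 2741 at an adjusted p under 0.05, 4317 without the fold minimum and 2570 when only the libraries compared were fitted. Leaving out 1 library gave 2843 to 3356 genes, where a subset left with 2 libraries was assumed to vary like the other groups. The counts for SKG and for the interaction ranged from 1838 to 1959 and from 326 to 572 when 1 library was left out. None of these counts moved by more than 1.5 times.

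The titles share a token between libraries of the 2 subsets. The deviations of libraries with the same token correlated at 0.262, -0.061 and 0.227 in WT and at 0.051, 0.182 and 0.108 in SKG. Libraries of the same genotype and token either all held Xist or all held Y-linked transcripts. What the token marks is not given, so the main fit used no pairing, and fits with a replicate block by token are set beside it. With the replicate block the WT count was 3123, of which 2996 were called without it, and 2631 with the block when only the libraries compared were fitted. With the block Notch2 lost its call (-0.56), and Mcl1 (1.61) and Slamf1 (-0.62) gained one. With the block in the libraries compared alone, Notch2 was not called (-0.58) and Mcl1 was (1.43). In WT not every library correlated best with its own number, whereas in SKG each NKT1 library did.

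Of 218 genes named and tested in WT, 179 were called, and 174 of these were called under every alternative. Of the 39 not called, 17 were called under some alternative, which apart from Cd28, Mcl1, Sdc1, Slamf1 and Stat6 was only the one without the fold minimum. The calls lost under some alternative were Id2, Il2rg, Notch2, Egr2 and Folr4, and Folr4 was lost without NKT1 replicate 1 (edgeR adjusted p 0.105), and Id2 and Il2rg were also lost at a mean of at least 50 counts. No called direction turned. Of the recomputed counts of list members, 70 moved by more than 1.5 times and 1050 did not. Among those that moved, ribosomal protein genes lower in NKT1 were 51 without the fold minimum against 18, and effector cytokine genes higher and lower in NKT1 were 5 and 3 at a mean of at least 50 counts against 8 and 6. BCL-2 family genes lower in NKT1 were 2 of 17 with DESeq2 or without the filter, 2 of 15 without the fold minimum and 0 when only the libraries compared were fitted, against 1 of 15. Genes with few counts set the limit of depth, since 103 calls had NKT2 and 223 calls had NKT1 at or under 3 counts per library, and the size of their fold changes rests on the bounds.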
